A study of Mus musculus with 10 samples.

Results

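The 56 genes described here drive or mark the cell cycle, and their transcripts were measured in mouse alveolar macrophages, which live in the air spaces of the lung and clear surfactant and particles. They were matched by gene symbol: 13 genes of G1 and of the G1/S transition, 14 genes of DNA replication and 29 genes of G2 and mitosis, out of 26173 genes in the table. All 56 were found, and all 56 reached 1 FPKM in at least 2 samples. FPKM is the number of fragments scaled to transcript length and library size, so that levels can be compared between genes as well as between samples. In bulk RNA of this kind, fewer dividing cells and less of a transcript per dividing cell cannot be told apart.

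The study asked how alveolar macrophages change when Bach2, a transcriptional repressor, is lost. All mice were C57BL/6, labelled female and 16 weeks old, and there were 5 groups of 2 samples. The conditional line carried floxed Bach2 with CD4-Cre, whose driver acts in T cells, so the macrophages of these mice need not have lost Bach2 themselves. Mice labelled as controls of that line gave the floxed control library, and the labels do not say whether they carried Cre. Its knockout mice gave a normal-fraction library, from macrophages whose surface markers were those of controls, and an aberrant-fraction library, from macrophages whose surface markers were not. Wild-type mice and mice with a germline Bach2 knockout gave the other 2 libraries.

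The 2 samples of each group were counted as 1 library, because they differed by little more than sampling noise. Across genes, log2(FPKM + 1) values of such samples correlated at 0.993 to 0.998, and those of samples from different groups at 0.685 to 0.853. Over 180 pairs of a member and a library with at least 5 FPKM in both samples, the median ratio of the higher to the lower sample was 1.05. With 1 library per group, no difference below was checked against biological replicates or given a p-value. Depth, read from the steps of the lowest values, was about 7.60 M to 9.39 M fragments per sample, which makes 1 read on a transcript of 2 kb worth 0.0533 to 0.0658 FPKM. Bach2 itself was at or under 0.0761 FPKM in every sample, so its level could not check the genotypes. The sex label went against the data: the Y-linked gene Eif2s3y was at 38.7 to 63.1 FPKM in the wild-type and germline knockout samples and at most 0.146 in the others, while Xist was at 3.72 to 10.0 FPKM in the 3 libraries of the conditional line and at most 0.00472 in the other 2. Both knockout comparisons below stay within one of these 2 sets of libraries. Of 10 alveolar macrophage markers, 10 were at 1 FPKM or more in the floxed control, normal-fraction and wild-type libraries, 7 in the aberrant-fraction and 6 in the germline knockout library. Marco was at 224, 168 and 339 FPKM in the first 3 and at 0.258 and 13.5 in the aberrant-fraction and germline knockout libraries, and Cidec at 299, 94.6 and 405 against 0.266 and 0. Siglec5, Car4, Ear1, Krt79, Pparg and Fabp1 were also lowest in those 2 libraries. Chil3 and Itgax did not share this pattern, being lowest in the aberrant-fraction but highest in the germline knockout library. Chil3 was at 9170, 27700 and 9280 FPKM in the first 3, 8290 in the aberrant-fraction and 46600 in the germline knockout library. Itgax was at 253, 296 and 289 against 124 and 365.

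Alveolar macrophages keep up their numbers in the adult lung largely by dividing in place. In G1, D-type cyclins with Cdk4 or Cdk6, and then E-type cyclins with Cdk2, free E2F transcription factors that switch on the genes of DNA replication, and Cdk inhibitors such as the product of Cdkn1a hold this step back. Genes of G2 and mitosis are switched on later as a second wave, through promoters that carry a CHR (cell cycle genes homology region) and CCAAT boxes, and these genes are kept silent in resting cells through the same CHR.

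The promoters of the 2 waves differed in the letters they carry in the reference sequence. RefSeq promoters on GRCm38.p6, from 250 bases before to 50 bases after the annotated start, were at hand for 46 of the 56 genes and for 27025 genes in all. Both strands were searched. The CHR letters TTTGAA were in 16 of 24 promoters of the G2 and mitosis genes (66.7%), in 2 of 12 of the replication genes (16.7%) and in 0 of 10 of the G1 and G1/S genes, against 20.2% of all promoters. In 15 of the 16 the match lay within 50 bases of the start. With the variant TTTAAA added, the shares were 79.2% and 41.7% for the mitotic and replication genes and 2 of 10 for the G1 and G1/S genes, against 30.6% of all promoters. CCAAT was found in 83.3%, 75.0% and 4 of 10, against 41.1%, and all 16 mitotic promoters with TTTGAA held CCAAT too, a pair present in 7.97% of all promoters. E2F letters (TTTGGCGC, TTTCGCGC, TTTCCCGC or TTTGCCGC) were most frequent in the replication promoters, with 5 of 12 replication promoters (41.7%), 8.33% of the mitotic and 10.0% of the G1 and G1/S promoters, against 2.6% of all. These are letter matches in the reference and no measure of binding.

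The stretches printed here end 10 bases after the start and run 5′ to 3′ on the gene's own strand. The first 4 belong to genes that were filled in the floxed control and missing in the aberrant-fraction library. Cdk1 and Cdc20 follow as mitotic genes that stayed measurable in all 5 libraries and carry the same elements. Mcm6, a replication gene with E2F letters, closes the set. Capitals mark TTTGAA and CCAAT on either strand (TTCAAA and ATTGG are the reverse complements) in the first 6, and the E2F letters on either strand, which overlap at the first site, in Mcm6.
Ube2c (chr2:164769814-164769938, plus strand): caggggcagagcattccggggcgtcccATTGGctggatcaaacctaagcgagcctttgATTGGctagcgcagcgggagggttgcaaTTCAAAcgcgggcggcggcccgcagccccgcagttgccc
Prc1 (chr7:80294336-80294460, plus strand): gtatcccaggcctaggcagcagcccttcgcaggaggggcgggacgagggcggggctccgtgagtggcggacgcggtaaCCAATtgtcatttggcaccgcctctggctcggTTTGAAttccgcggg
Kif23 (chr9:61946790-61946914, minus strand): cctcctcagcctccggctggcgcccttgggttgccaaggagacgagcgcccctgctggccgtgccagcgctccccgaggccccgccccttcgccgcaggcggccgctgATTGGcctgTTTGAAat
Kif11 (chr19:37376267-37376391, plus strand): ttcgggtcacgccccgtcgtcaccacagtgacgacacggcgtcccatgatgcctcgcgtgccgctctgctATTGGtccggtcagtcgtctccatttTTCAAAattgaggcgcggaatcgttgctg
Cdk1 (chr10:69352903-69353027, minus strand): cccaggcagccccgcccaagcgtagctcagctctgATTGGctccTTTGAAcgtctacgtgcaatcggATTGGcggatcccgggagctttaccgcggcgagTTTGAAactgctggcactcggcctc
Cdc20 (chr4:118437334-118437458, minus strand): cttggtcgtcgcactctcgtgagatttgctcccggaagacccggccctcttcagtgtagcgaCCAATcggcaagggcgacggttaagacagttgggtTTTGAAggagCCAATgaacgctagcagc
Mcm6 (chr1:128359696-128359820, minus strand): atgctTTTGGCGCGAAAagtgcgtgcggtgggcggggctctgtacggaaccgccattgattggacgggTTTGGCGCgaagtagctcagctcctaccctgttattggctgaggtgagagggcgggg

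Seen over all 56 genes, the genes of replication and of G2 and mitosis had median differences below 0 in the aberrant-fraction and germline knockout libraries against their controls, larger for the mitotic genes, while the G1 and G1/S genes were mixed. At least 1 FPKM was reached by 27 of the 29 mitotic genes in the floxed control, 28 in the normal-fraction and 26 in the wild-type library, against 8 in the aberrant-fraction and 14 in the germline knockout library. Their median level was 13.4, 16.3 and 11.7 FPKM in the first 3 and 0.0358 and 0.574 FPKM in the other 2. The summed level, which a few abundant genes carry, was 660, 613 and 654 against 161 and 190 FPKM. For the replication genes the median level was 23.6, 21.3, 9.12, 19.0 and 5.10 FPKM in the floxed control, normal-fraction, aberrant-fraction, wild-type and germline knockout libraries, and 12 to 14 of the 14 were at 1 FPKM or more in each. The G1 and G1/S genes summed to 382, 723, 1249, 376 and 888 FPKM in the same order, with medians of 11.6, 14.1, 18.5, 6.81 and 3.55 FPKM. The germline knockout thus had the lowest median and the fewest genes at 1 FPKM or more (9 of 13), and most of its sum came from Rgcc (394 FPKM), Cdkn1a (249) and Cdk4 (188). Genes in general did not thin out in this way: of the 11336 genes compared, 74.4% to 79.4% were at 1 FPKM or more in each library.

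**Figure D1:**
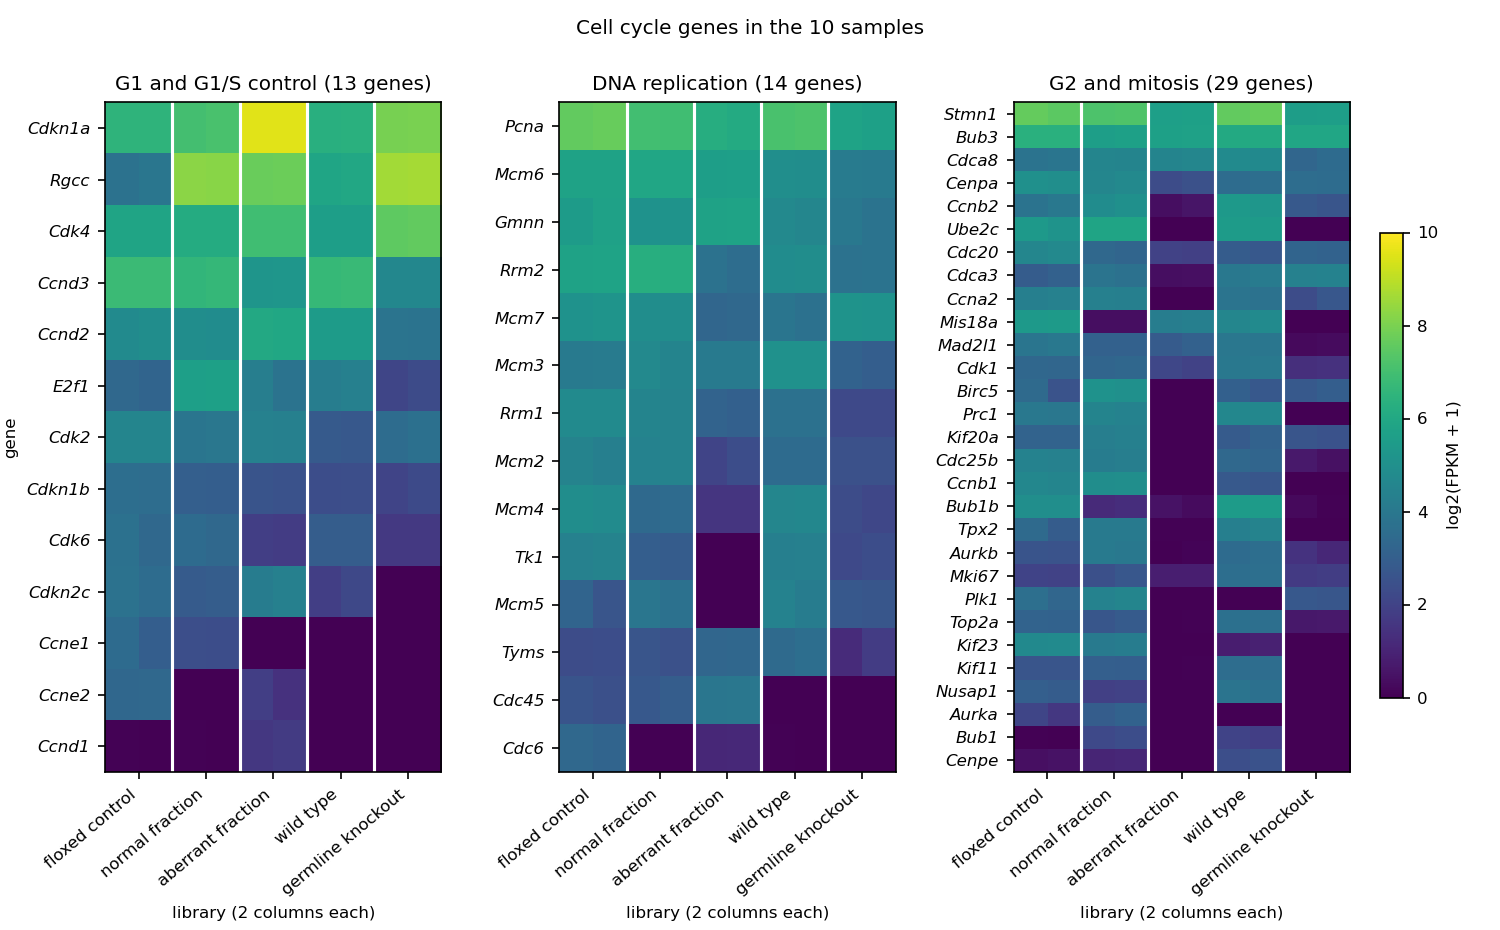
Levels of the 56 cell cycle genes on the log2(FPKM + 1) scale, 1 panel for each group of genes and 2 columns (samples) for each library, with genes in rows from the highest to the lowest mean. In the right panel the aberrant-fraction columns and many of the germline knockout columns are dark, with 8 and 14 of 29 genes at 1 FPKM or more, while Cdkn1a, Rgcc and Cdk4 in the left panel are bright there.

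A gene was called higher or lower where the log2(FPKM + 1) values of 2 libraries lay 2 units (4-fold) or more apart, both between their means and in each possible pairing of single samples, and the higher library reached 20 FPKM. Between the aberrant-fraction and the floxed control library, 2 of the 56 genes were called higher, where the rule called 4.09% of all genes, and 9 were called lower, against 3.76% of all genes. The 2 were Cdkn1a and Rgcc. The 9 were Mcm4 and Tk1 of replication, and Ccnb1, Cdc20, Cdc25b, Ube2c, Bub1b, Kif23 and Cenpa of mitosis. With the wild type as reference in place of the floxed control, Rgcc, Tk1, Ccnb1, Cdc20, Cdc25b, Kif23 and Cenpa were no longer called, and Ccnb2, Tpx2 and Prc1 were called lower. Between the germline knockout and the wild type, Rgcc was the 1 gene called higher (2.73% of all genes) and 8 were called lower (3.36% of all genes), namely Ccnd3, Mcm4, Ccnb2, Ube2c, Bub1b, Tpx2, Prc1 and Mis18a. Between the normal-fraction and the floxed control library the counts were small, as they were for all genes: E2f1 and Rgcc were called higher (0.935% of all genes), and Bub1b and Mis18a lower (0.838%).

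Many mitotic genes are expressed below the floor of 20 FPKM even in the controls, so the calls were also counted with a floor of 5 FPKM. At that floor 23 of the 56 genes were called lower in the aberrant-fraction library than in the floxed control, where 9.55% of all genes were, and 18 of the 23 were mitotic. In the germline knockout library 16 of the 56 were called lower than in the wild type, where 8.93% of all genes were, and 14 of the 16 were mitotic. The median difference of the 29 mitotic genes on the log2(FPKM + 1) scale was -2.73 for the aberrant-fraction against the floxed control library, with 28 of 29 below 0, and -2.28 for the germline knockout against the wild type, with 25 of 29 below 0. The replication genes had medians of -1.73 and -1.26, and the G1 and G1/S genes of 0.64 and 0, while the median of all genes was 0 in both comparisons. The normal-fraction library differed from the floxed control by medians of 0.38, -0.09 and -0.13 for the mitotic, replication and G1 groups.

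**Figure D2:**
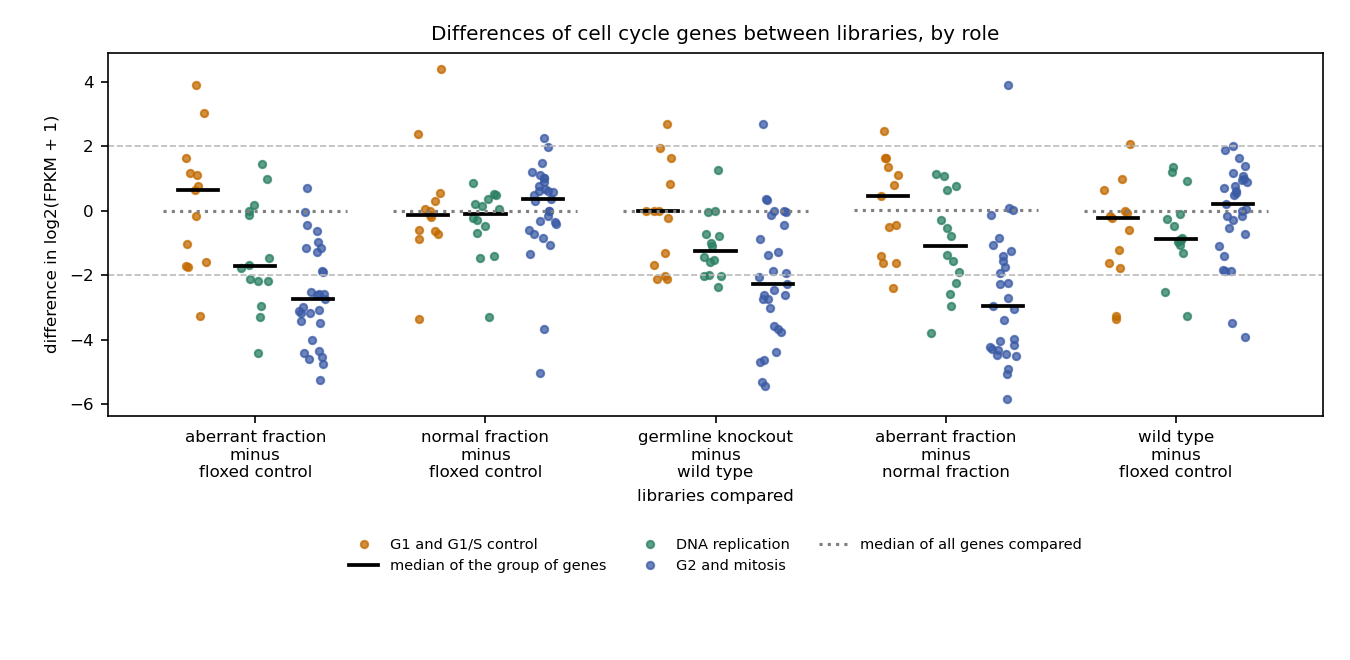
Difference of each of the 56 genes between 2 libraries on the log2(FPKM + 1) scale (vertical axis) for 5 comparisons, with genes coloured by role, a black bar at the median of each group of genes and a dotted line at the median of all genes. The mitotic medians lie at -2.73, -2.28 and -2.97 where the aberrant-fraction or germline knockout library comes first, and at 0.38 and 0.20 in the other 2 comparisons. Dashed lines mark the 4-fold threshold.

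Among the inhibitors and brakes of G1, Cdkn1a stood out. Its product, p21, binds and inhibits cyclin-Cdk complexes. The 2 samples read 89.5 and 90.8 FPKM in the floxed control, 129.7 and 137.5 in the normal-fraction, 741 and 757 in the aberrant-fraction, 79.3 and 80.4 in the wild-type and 246 and 251 in the germline knockout library. No 2 libraries overlapped, and the aberrant-fraction library was 3.04 log2 units above its control, while the germline knockout was 1.63 above the wild type and was not called. Rgcc, named as a regulator of the cell cycle, was at 12.8 and 14.0 FPKM in the floxed control, 307 and 297 in the normal-fraction, 211 and 215 in the aberrant-fraction, 58.1 and 62.1 in the wild-type and 391 and 397 in the germline knockout library. It was called higher in all 3 libraries from knockout mice, by 4.39, 3.89 and 2.69 log2 units in the normal-fraction, aberrant-fraction and germline knockout libraries, although the first 2 of these share their control. The control libraries themselves were 2.09 log2 units apart, and against the wild type as reference the aberrant-fraction library was no longer called. Cdkn1b, which encodes the inhibitor p27, had 11.2 and 10.8, 7.17 and 6.83, 5.03 and 4.77, 4.16 and 4.28, and 3.17 and 3.71 FPKM in the floxed control, normal-fraction, aberrant-fraction, wild-type and germline knockout libraries, and was called in no comparison. The inhibitor gene Cdkn2c was highest in the aberrant-fraction library, at 17.3 and 19.7 FPKM, and was listed at 0 in both germline knockout samples.

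The D-type cyclins, which sense growth signals and activate Cdk4 and Cdk6, did not move together. Ccnd3 was at 112 and 112 FPKM in the floxed control, 94.8 and 100.3 in the normal-fraction and 103 and 108 in the wild-type library, against 35.7 and 36.9 in the aberrant-fraction and 23.8 and 23.6 in the germline knockout library. Both of the last libraries lay below the other 3, but only the germline knockout was called lower, by 2.11 log2 units against the wild type, a call that was lost under upper quartile scaling and with the highest transcript in place of the sum. Ccnd2 took opposite directions in the 2 lines. It was at 26.6 and 28.8 FPKM in the floxed control, 29.2 and 28.4 in the normal-fraction and 65.4 and 60.9 in the aberrant-fraction library, and at 44.2 and 44.5 in the wild type and 13.3 and 12.9 in the germline knockout. Neither difference was called. Ccnd1 was low throughout, with 2.05 and 2.33 FPKM in the aberrant-fraction samples and at most 0.0298 in the other 8. It entered the comparison only through that library.

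The partner kinases differed from one another as well. Cdk4 was at 56.2 and 56.0 FPKM in the floxed control, 69.8 and 69.4 in the normal-fraction, 122 and 121 in the aberrant-fraction, 47.5 and 48.0 in the wild-type and 184 and 193 in the germline knockout library. The germline knockout was 1.96 log2 units above the wild type, just under the threshold, and scaling by the upper quartile carried it over. Cdk6 ran the other way, at 12.3 and 9.34, 10.4 and 9.30, 2.58 and 2.44, 6.81 and 6.81, and 2.14 and 2.18 FPKM in the same order of libraries, with no call. Cdk2, which acts with E-type cyclins, lay between 5.70 and 22.5 FPKM.

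E2f1, the activator of G1/S genes, was highest in the normal-fraction library. Its 2 samples there held 49.4 and 50.6 FPKM, against 9.34 and 8.22 in the floxed control, 18.6 and 12.8 in the aberrant-fraction, 17.8 and 19.3 in the wild-type and 3.25 and 3.86 in the germline knockout library. The normal-fraction library was called higher than its control, by 2.38 log2 units, and was not called against the wild type. The E-type cyclins were found in few libraries: Ccne1 was at 10.2 and 6.94 FPKM in the floxed control and 4.34 and 4.18 in the normal-fraction library, and Ccne2 at 9.21 and 9.53 in the floxed control and 2.61 and 1.68 in the aberrant-fraction library. Elsewhere both were below the value of 1 read, the wild type included.

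**Figure D3:**
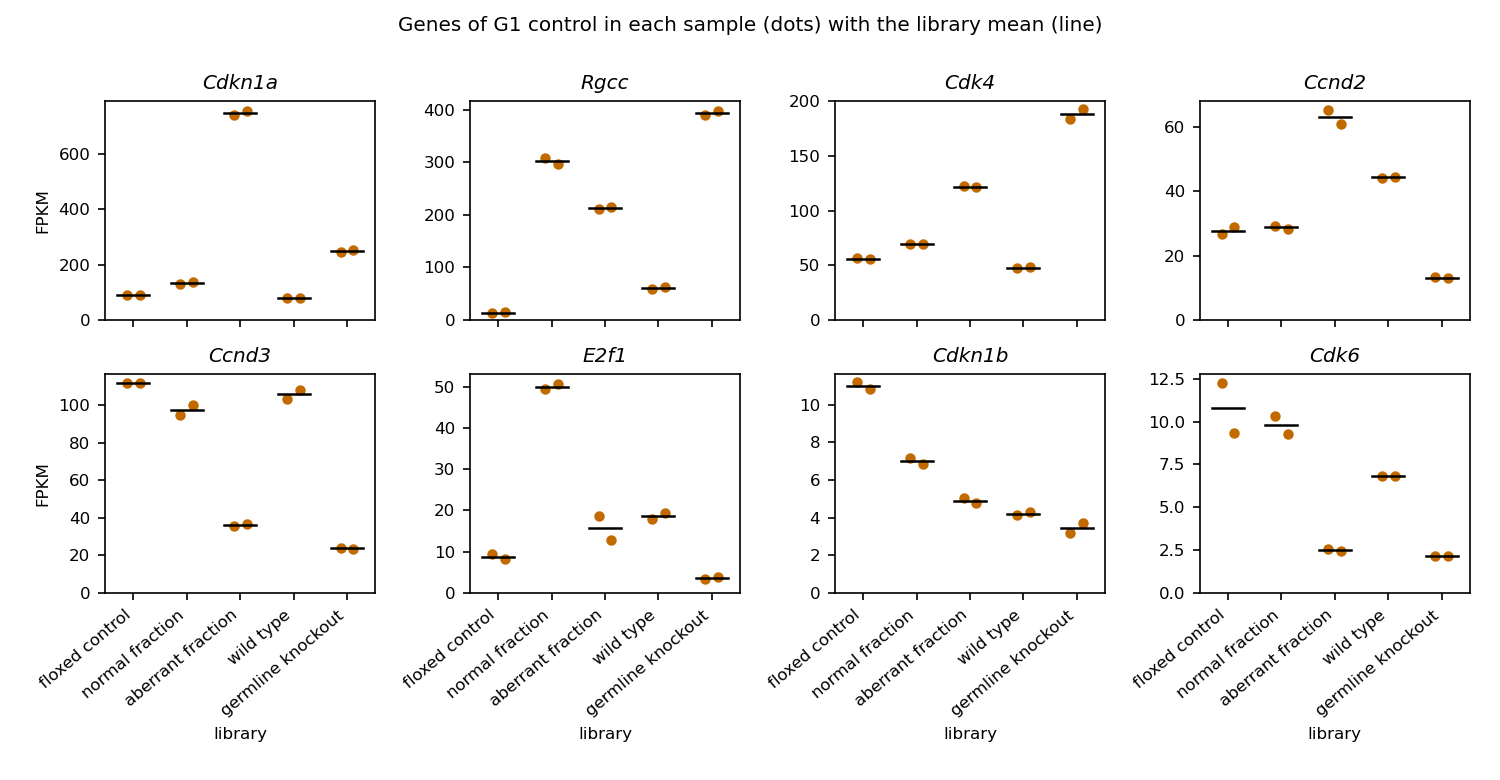
Levels in FPKM (linear axes from 0) of 8 genes of G1 control in the 5 libraries, with a dot for each of the 2 samples and a line at their mean. Cdkn1a peaks in the aberrant-fraction library (741 and 757 FPKM), Rgcc and Cdk4 in the germline knockout library, and E2f1 in the normal-fraction library (49.4 and 50.6 FPKM), while Ccnd3 and Cdk6 are lowest in the aberrant-fraction and germline knockout libraries.

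In the replication group, the licensing and supply genes differed by gene. Mcm4, a subunit of the MCM2-7 helicase that is loaded at origins, was called lower in both knockout comparisons. It was at 28.6 and 27.6 FPKM in the floxed control, 9.78 and 10.4 in the normal-fraction, 1.93 and 1.95 in the aberrant-fraction, 23.4 and 23.4 in the wild-type and 3.95 and 3.43 in the germline knockout library. Mcm2, of the same ring, held 20.9 and 19.2, 20.6 and 21.4, 3.12 and 4.12, 10.4 and 10.2, and 4.62 and 4.63 FPKM in that order. The aberrant-fraction library was called lower than the normal-fraction library in Mcm2 and stopped just short of a call against the floxed control, at -2.19 log2 units in the mean and -1.98 in the closest choice of samples.

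Mcm5 was at 8.38 and 5.27 FPKM in the floxed control, 14.2 and 12.1 in the normal-fraction, 20.7 and 17.2 in the wild-type and 5.77 and 5.39 in the germline knockout library. In the aberrant-fraction samples it was below the value of 1 read. Mcm6 and Mcm3 stayed near their control level in the aberrant-fraction library only. There Mcm6 was at 47.5 and 49.2 FPKM against 52.8 and 53.7 in the floxed control, and Mcm3 at 15.9 and 16.3 against 15.7 and 16.8. In the germline knockout Mcm6 was at 16.9 and 16.4 FPKM against 29.9 and 29.1 in the wild type. Mcm3 was at 7.73 and 6.90 against 32.0 and 32.2, or -1.99 log2 units, just short of a call. Mcm7 was at 33.5 and 35.2 FPKM in the floxed control and 8.98 and 9.52 in the aberrant-fraction library, but at 14.0 and 12.3 in the wild type and 33.7 and 33.0 in the germline knockout. The 6 subunits of 1 ring therefore had different transcript patterns over the same 5 libraries.

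Among the genes of nucleotide supply, Tk1 (thymidine kinase) was listed at 0 in both aberrant-fraction samples. It was at 19.9 and 21.1 FPKM in the floxed control, 6.89 and 6.57 in the normal-fraction, 18.7 and 19.3 in the wild-type and 3.65 and 4.09 in the germline knockout library. With a control level near 20 FPKM, its call depended on 1 floxed control sample, on the scaling and on the choice of transcript, as did that of Cdc25b below. Rrm2, the regulated subunit of ribonucleotide reductase, had 53.5 and 54.0, 76.6 and 75.1, 12.7 and 10.8, 27.8 and 28.8, and 12.6 and 13.0 FPKM in the floxed control, normal-fraction, aberrant-fraction, wild-type and germline knockout libraries. It was called lower in the aberrant-fraction than in the normal-fraction library. Its partner Rrm1 was at 26.8 and 26.6 FPKM in the floxed control and 7.99 and 7.41 in the aberrant-fraction library, and at 12.3 and 12.4 in the wild type and 3.64 and 3.63 in the germline knockout, with no call. Tyms, which makes thymidylate, stayed between 1.35 and 11.4 FPKM.

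Pcna, the sliding clamp of the replication fork and also of DNA repair, was the most abundant replication gene in every library. It held 192 and 204 FPKM in the floxed control, 124.7 and 122.3 in the normal-fraction, 73.9 and 67.6 in the aberrant-fraction, 139.8 and 148.0 in the wild-type and 54.8 and 50.6 in the germline knockout library. The order of its 5 libraries had no overlap, and no difference was called. Gmnn, whose product geminin blocks a second licensing, stood at 52.8 and 54.3 FPKM in the aberrant-fraction library against 43.8 and 51.3 in its control. Cdc45, a helicase cofactor, was highest in the aberrant-fraction library, at 14.2 and 14.7 FPKM, and was listed at 0 in all wild-type and germline knockout samples. Cdc6, the loading factor, was at 9.51 and 8.33 FPKM in the floxed control and 1.18 and 1.21 in the aberrant-fraction library, and at most 0.0525 elsewhere.

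For entry into mitosis, B-type cyclins activate Cdk1 and the Cdc25 phosphatases remove its inhibitory phosphates. Ccnb1 was at 24.1 and 22.7 FPKM in the floxed control, 28.7 and 30.1 in the normal-fraction and 5.93 and 5.35 in the wild-type library, and was listed at 0 in all aberrant-fraction and germline knockout samples. Ccnb2 was at 13.2 and 15.0 FPKM in the floxed control, 28.1 and 31.2 in the normal-fraction, 0.294 and 0.499 in the aberrant-fraction, 40.7 and 37.0 in the wild-type and 5.92 and 5.19 in the germline knockout library. It was called lower in the germline knockout than in the wild type. Ccna2, the cyclin of S phase and G2, was at 18.87 and 19.96 FPKM in the floxed control, 19.5 and 18.9 in the normal-fraction, 13.5 and 12.5 in the wild-type and 4.00 and 5.62 in the germline knockout library, and below the value of 1 read in the aberrant-fraction library. Its control level lay just under the floor of 20 FPKM. Cdc25b was at 20.8 and 19.8, 17.5 and 18.4, and 9.27 and 8.72 FPKM in the floxed control, normal-fraction and wild-type libraries, at 0.621 and 0.361 in the germline knockout, and at 0 in the aberrant-fraction library. Cdk1 itself remained measurable everywhere, from 1.56 FPKM in a germline knockout sample to 15.4 in a wild-type sample, with 9.21 and 8.74 in the floxed control and 3.37 and 2.93 in the aberrant-fraction library.

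Exit from mitosis depends on the anaphase-promoting complex, with Ube2c as its ubiquitin-conjugating enzyme and Cdc20 as its activator. Ube2c had the widest gap of the mitotic genes in both knockout comparisons. It was at 40.2 and 34.0 FPKM in the floxed control, 56.9 and 56.8 in the normal-fraction and 43.3 and 42.2 in the wild-type library, and below the value of 1 read in all aberrant-fraction and germline knockout samples. Cdc20 kept a low level in every library: 23.4 and 24.9 FPKM in the floxed control, 9.45 and 8.51 in the normal-fraction, 2.88 and 2.68 in the aberrant-fraction, 6.43 and 5.76 in the wild-type and 8.37 and 7.78 in the germline knockout library. It was called lower in the aberrant-fraction than in the floxed control library, but its wild-type level was nearer to the aberrant-fraction library than to the floxed control.

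Among the genes of the spindle checkpoint, which delays anaphase until chromosomes are attached, Bub1b had a pattern of its own. It was at 29.3 and 29.9 FPKM in the floxed control and 44.1 and 43.6 in the wild type, but at 1.29 and 1.48 in the normal-fraction, 0.410 and 0.229 in the aberrant-fraction and 0.204 and 0.0349 in the germline knockout library. All 3 libraries from knockout mice were thus called lower than their controls, the normal-fraction library included. Mis18a, which helps to load the centromeric histone, was called lower in the normal-fraction library (0.289 and 0.3003 FPKM) than in the floxed control (40.7 and 43.1), and in the germline knockout (0 in both samples) than in the wild type (23.4 and 26.8), while the aberrant-fraction library held 18.1 and 18.7. The centromeric histone gene Cenpa was at 31.5 and 30.1, 23.2 and 25.4, 4.07 and 4.58, 10.4 and 11.4, and 10.9 and 10.5 FPKM in the floxed control, normal-fraction, aberrant-fraction, wild-type and germline knockout libraries. The aberrant-fraction library was called lower than both others of its line, and the germline knockout overlapped the wild type. The checkpoint gene Bub3 stayed between 47.5 and 81.3 FPKM in all 10 samples.

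Motor and midzone proteins build the spindle and separate the daughter cells. Kif23, a kinesin of the midzone, was at 25.97 and 26.6 FPKM in the floxed control and 16.6 and 17.2 in the normal-fraction library, and at 0 in the aberrant-fraction and germline knockout libraries. The wild type was low as well, at 0.720 and 0.912 FPKM. Prc1, which bundles midzone microtubules, had 15.2 and 14.8 FPKM in the floxed control, 22.1 and 20.4 in the normal-fraction and 23.9 and 23.5 in the wild-type library, and was below the value of 1 read in the other 2. Tpx2, a spindle assembly factor that activates Aurora A, showed the same set of filled libraries, with 10.1 and 6.54, 16.6 and 15.9, and 19.0 and 21.2 FPKM, against at most 0.0411 in the aberrant-fraction and germline knockout samples. Its germline knockout call was lost without the second wild-type sample, under upper quartile scaling and with the highest transcript in place of the sum, and the last of these also ended the calls of Prc1 against the wild type and against the normal-fraction library. Kif11, Nusap1 and Top2a followed with lower levels. Top2a, which untangles sister chromatids, was at 8.16 and 7.79 FPKM in the floxed control, 5.33 and 6.29 in the normal-fraction, 0.0235 and 0.0481 in the aberrant-fraction, 11.8 and 11.6 in the wild-type and 0.544 and 0.604 in the germline knockout library.

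The mitotic kinases and their partners were less uniform. Plk1, which acts from mitotic entry to cytokinesis, was at 11.6 and 8.88 FPKM in the floxed control, 20.6 and 22.7 in the normal-fraction and 5.67 and 5.35 in the germline knockout library, and was listed at 0 in the aberrant-fraction and in the wild-type samples. Birc5, the survivin subunit of the chromosomal passenger complex, was at 10.1 and 4.92 FPKM in the floxed control, 33.2 and 31.4 in the normal-fraction, 7.45 and 5.67 in the wild-type and 5.95 and 6.97 in the germline knockout library, and was below the value of 1 read in the aberrant-fraction library. Cdca8, another subunit of that complex, did not follow it, with 22.1 and 22.9 FPKM in the aberrant-fraction library against 13.0 and 13.8 in the floxed control. The kinase genes Aurka and Aurkb reached 7.87 and 16.2 FPKM at most, both in the normal-fraction library. Mki67, the common proliferation marker, was at 2.99 and 2.94 FPKM in the floxed control, 4.46 and 5.48 in the normal-fraction, 0.7986 and 0.7996 in the aberrant-fraction, 11.3 and 11.5 in the wild-type and 2.27 and 2.49 in the germline knockout library. It was called in no comparison, and its germline knockout level was close to that of the floxed control.

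The remaining members of the mitotic group were Cdca3, Kif20a, Mad2l1, Bub1, Cenpe and Stmn1. Cdca3 was the 1 mitotic gene whose highest level was in the germline knockout library, at 20.3 and 20.6 FPKM. Mad2l1 was at 6.32 and 7.51 FPKM in the aberrant-fraction library and at 0.205 and 0.211 in the germline knockout. Stmn1, which encodes a microtubule destabiliser also found outside mitosis, was the most abundant mitotic gene in the controls, at 199.5 and 177.4 FPKM in the floxed control and 190.7 and 204.8 in the wild type, against 49.1 and 50.5 in the aberrant-fraction and 46.9 and 47.6 in the germline knockout library. Neither of its differences was called. Kif20a, Bub1 and Cenpe reached 19.3, 4.10 and 4.68 FPKM at most.

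The aberrant-fraction library was also set against the normal-fraction library, the other macrophage fraction of the same knockout mice. Cdkn1a was called higher (4.02% of all genes were), and 9 genes were called lower (3.26% of all genes): Mcm2, Rrm2, Ccnb1, Ccnb2, Ube2c, Birc5, Plk1, Prc1 and Cenpa. The median difference of the mitotic genes was -2.97, of the replication genes -1.09 and of the G1 and G1/S genes 0.47 log2 units. This comparison shares the aberrant-fraction library with the one above, so the 2 are not separate observations of it. The fractions had been separated by surface markers, not by the cell cycle genes compared here. Whether cell type markers described in other paragraphs, such as Itgax, were among those used for the separation was not checked.

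At 100 pg of RNA per sample, rare transcripts may go uncaptured, so the mitotic genes were set beside all genes of like level. Of 5436 genes at 5 to 60 FPKM in the floxed control, 8.77% were under 0.1 FPKM in the aberrant-fraction library, against 13 of 22 mitotic genes (59.1%). In the germline knockout library the shares were 9.55% of all such genes and 8 of 22 (36.4%). The wild-type library lacked 7.51% of all such genes and 1 of 22 mitotic genes, and the normal-fraction library 5.45% and 0 of 22. From the wild type as the starting library, 8.55% and 12 of 22 (54.5%) were missing in the aberrant-fraction library, and 8.95% and 7 of 22 (31.8%) in the germline knockout. Of the replication genes, 2 of 11 (18.2%) in the aberrant-fraction and 1 of 11 (9.09%) in the germline knockout library were missing, with the floxed control as the starting library.

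Genes missing from a library are not limited to those 2. The G1 and G1/S genes had 3 of 10 missing in the germline knockout and 2 of 10 in the wild type from the floxed control, and Ccne2 and Cdc6 were missing in the normal-fraction library. The depth behind the missing mitotic genes was worked out from the levels elsewhere. At their floxed control level, about 475 fragments of Ccnb1, 730 of Kif23, 512 of Cdc25b and 293 of Ube2c would have been read per aberrant-fraction sample. At their wild-type level, about 353 fragments of Ube2c, 613 of Prc1 and 286 of Mis18a would have been read per germline knockout sample. These numbers rest on annotated transcript lengths and take no account of molecules lost before amplification, whose part was not tested.

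**Figure D4:**
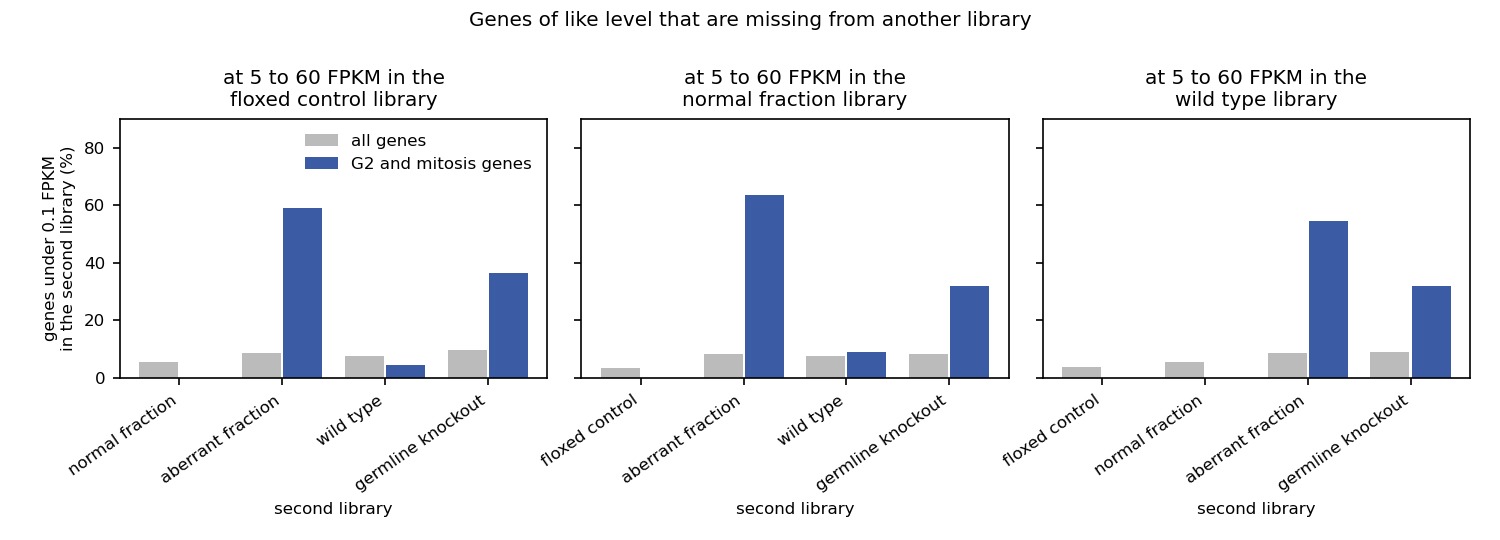
Share of genes under 0.1 FPKM in a second library (vertical axis, %) among genes at 5 to 60 FPKM in the library named above each panel, for all genes (grey) and for the G2 and mitosis genes (blue, 22 genes in each panel). The blue bars reach 54.5% to 63.6% in the aberrant-fraction and 31.8% to 36.4% in the germline knockout library, and 0 to 9.09% in the other libraries, while the grey bars stay between 3.61% and 9.55%.

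The 2 comparisons of a knockout with its own control share no library, so their lists could be laid over each other. With the floor of 20 FPKM, Mcm4, Bub1b and Ube2c were lower in both, which is 33.3% of the 9 genes called lower in the aberrant-fraction library and 37.5% of the 8 in the germline knockout. Over all genes, 116 were lower in both, or 27.2% and 30.4% of the 2 lists. With the floor of 5 FPKM, 10 mitotic genes were lower in both: Bub1b, Ccnb1, Ccnb2, Cdc25b, Kif11, Nusap1, Prc1, Top2a, Tpx2 and Ube2c. They made up 55.6% of the 18 mitotic genes of the first list and 71.4% of the 14 of the second, against 25.4% and 27.2% for all genes. These shares cannot be compared directly, since lists that hold more of a group overlap more by their size alone. The 2 lists held 18 and 14 of the 29 mitotic genes, but 9.55% and 8.93% of all genes. Of the 10 shared mitotic genes, 9 were at 1 FPKM or more in the floxed control, normal-fraction and wild-type libraries and in no other. The exception was Ccnb2, which the germline knockout still held. With the floor of 20 FPKM, Kif23, Tk1, Cdc20 and Cenpa were called lower in the aberrant-fraction library and not in the germline knockout. In the germline comparison neither library reached 20 FPKM for any of them, so a call was not possible there. Tk1 was 2.04 log2 units lower in the germline knockout than in the wild type. Ccnd3 and Mis18a among others were called lower in the germline knockout only. Differences between the 2 lines were not tested.

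**Figure D5:**
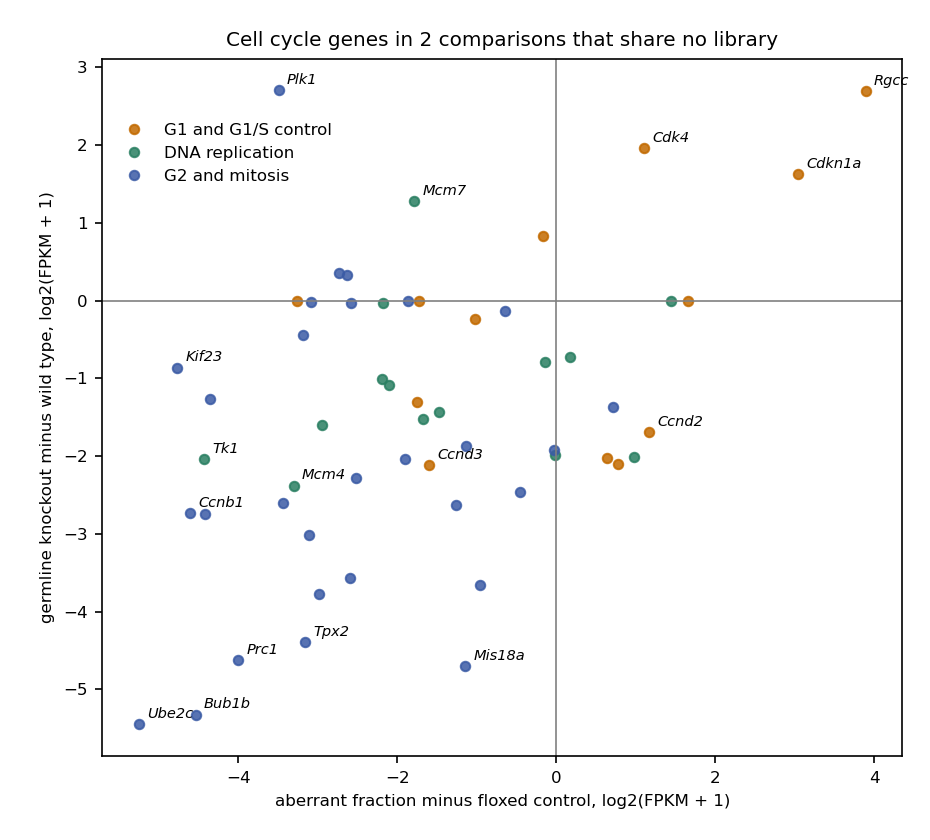
Difference of each of the 56 genes on the log2(FPKM + 1) scale in the aberrant-fraction against the floxed control library (horizontal) and in the germline knockout against the wild-type library (vertical), coloured by role. Ube2c, Bub1b and Prc1 lie at the lower left and Rgcc, Cdkn1a and Cdk4 at the upper right, while Plk1 and Mcm7 lie at the upper left and Ccnd2 at the lower right.

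Other genes of the same pathway were read from longer lists. Of 49 further genes of mitosis, of which 48 were found, 35 were at 1 FPKM or more in the floxed control, 32 in the normal-fraction, 21 in the aberrant-fraction, 36 in the wild-type and 19 in the germline knockout library. Of the 46 that could be compared, 0 were called higher and 2 lower in the aberrant-fraction against the floxed control library, where 3.76% of all genes were lower, and 0 and 3 in the germline knockout against the wild type, where 3.36% of all genes were. The 3 included Cks2, a small Cdk-binding subunit, which went from 115 to 9.61 FPKM, and Pttg1, which encodes securin, from 84.2 to 11.9 FPKM. Cks2 also set the 2 controls apart, at 22.9 FPKM in the floxed control, and was at 72.4 in the normal-fraction library. With the floor of 5 FPKM, 2 of the 46 were higher and 11 lower in the aberrant-fraction, and 0 and 15 in the germline knockout comparison. Of all genes, 9.55% and 8.93% were lower at that floor. The medians of the 46 were -0.96 and -1.42 log2 units, with 35 and 32 below 0. Of 42 further replication genes, of which 39 could be compared, 0 were called higher and 2 lower in each of these comparisons, among them Rpa1, a single-strand binding subunit, from 38.0 to 7.81 FPKM in the germline knockout. With the floor of 5 FPKM, 1 of the 39 was higher and 10 were lower in each, with medians of -0.66 and -1.08. Of 25 further G1 and G1/S genes, of which 23 could be compared, 0 were higher and 1 lower in the aberrant-fraction library, and 1 was higher and 0 lower in the germline knockout. The 1 called lower was the inhibitor gene Cdkn2d, from 29.5 FPKM in the floxed control to 0. In the wild type and germline knockout it was at 44.7 and 48.4 FPKM. With the floor of 5 FPKM, 3 of the 23 were higher and 4 lower in the aberrant-fraction library, and 2 and 1 in the germline knockout.

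Some genes of growth restraint and its control, a list that includes Mdm2, were called higher, and most were not called. Of 14 such genes outside the 56, 4 were called higher and 0 lower in the aberrant-fraction against the floxed control library (4.09% and 3.76% of all genes), and 5 higher and 1 lower in the germline knockout against the wild type (2.73% and 3.36% of all genes). Their median differences were 0.15 and 0.23 log2 units, with 7 and 8 of the 14 above 0. Gadd45b, a stress-induced gene of growth arrest, was listed at 0 in the floxed control and at 817 FPKM in the aberrant-fraction library, and went from 7.95 to 40.3 FPKM in the germline knockout comparison. Btg1, an antiproliferative gene, was at 98.6 and 602 FPKM, Plk2 at 1.54 and 150, and Gadd45a at 9.99 and 51.0 in the floxed control and aberrant-fraction libraries. Gadd45g ran the other way, without a call. It went from 243 FPKM in the floxed control to 75.4 in the aberrant-fraction library, and from 167 in the wild type to 45.2 in the germline knockout. Tob1, of the same family as Btg1, was the 1 called lower, from 46.1 to 7.29 FPKM in the germline knockout. Of 14 genes tied to macrophage self-renewal and its control, 1 was called higher and 1 lower in the aberrant-fraction library: Mxd1, an antagonist of Myc, from 9.74 to 64.5 FPKM, and Myc from 52.9 to 7.30 FPKM.

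Markers of other cell types moved with the aberrant-fraction library. All 6 dendritic cell markers were at 1 FPKM or more there, with a summed level of 2180 and 2220 FPKM in its 2 samples, against 7.22 to 15.6 FPKM in the floxed control and wild-type samples, 44.4 to 54.8 in the normal-fraction and 97.5 to 99.6 in the germline knockout samples. Of 9 T cell markers found, 8 were at 1 FPKM or more in the aberrant-fraction library, among them Cd3e at 17.7 and Lck at 29.6 FPKM. Only 1 or 2 were in the other libraries, where Cd3d, Cd3e, Cd3g, Lck and Lat were at most 0.147 FPKM. Their summed levels were 330, 268, 296, 456 and 66.6 FPKM in the floxed control, normal-fraction, aberrant-fraction, wild-type and germline knockout libraries, since Cd2 was at 330 FPKM in the floxed control. All 4 B cell markers were listed at 0 in every library. Monocyte-derived macrophage markers, mostly C1q genes, summed to 868 FPKM in the aberrant-fraction and 261 in the germline knockout library, against 11.4 and 26.7 in the floxed control and normal-fraction libraries and below the value of 1 read in the wild type. Of the other 2 genes of that list, Ly6c2 was below the value of 1 read in every library. Ccr2 was highest in the same 2 libraries, by a smaller margin. It was at 6.47, 5.1, 15.9, 0 and 9.15 FPKM in the floxed control, normal-fraction, aberrant-fraction, wild-type and germline knockout libraries. The part of cells of these other types in the cell cycle genes was not tested.

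The 2 control libraries show how far 2 libraries of unaffected mice lay apart. Between the wild type and the floxed control, 0 of the 56 genes were called higher (0.935% of all genes) and Kif23 was called lower (1.17% of all genes). The median difference was 0.20 for the mitotic, -0.86 for the replication and -0.23 log2 units for the G1 and G1/S genes. Single genes differed far more: Plk1, Ccne1, Ccne2, Cdc45 and Aurka were at 2.64 to 10.2 FPKM in the floxed control and below the value of 1 read in the wild type. These 2 libraries differ in mouse line and in the sex chromosome genes, and neither can be told apart from library-to-library variation.

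Some of the 56 genes are less certain than others by the way reads were shared out. The libraries do not mark strand, and the exons of 18 of the 56 overlap a gene on the other strand, among them Ccnd3 with Bysl, Cdk4 with Tspan31, Tk1 with Afmid, Ube2c with Tnnc2 and Prc1 with Rccd1. Mcm7, whose pattern differed from those of the other helicase subunits, overlaps 2 such genes, Ap4m1 and Cops6. RefSeq names pseudogenes for Ccnd3, Pcna, Tyms, Ccnb1 and Ccnb2.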

How the data were processed

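RNA of alveolar macrophages was measured in 10 samples. Per the labels' protocols, 100 pg of RNA went into each cDNA reaction, which ran for 18 PCR cycles, and the cDNA was sheared and made into libraries by kits that add no molecular identifiers and, as far as known, mark no strand. The authors deposited a table of FPKM values for 45913 transcripts, and its 10 columns were each matched to a sample title, with 0 columns left over. The submitters' processing notes name Bowtie 1.1.2 and eXpress 1.5.1, with no role; build and filters: not given in the sources used here. That the values are FPKM and not counts was checked on their sums (625660 to 668491 per column) and on their steps: 72.3% to 85.9% of the low values used lay within 25% of 1 read, over 9126 genes with 1 transcript of more than 1.5 kb. Depths are approximate, since annotated lengths, matched for 32449 transcripts, were used.

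Transcript values were added up per Entrez gene. The members and lists were chosen with earlier results of these data known. Genes at 1 FPKM or more in at least 2 samples (11336) were compared, with a pseudocount of 1 FPKM, which understates the change of low genes. A test with p-values was planned only for the case that the 2 samples of a group did not agree. Paired columns differed by little more than sampling noise and count as 1 library. The comparisons therefore used the planned rule of size (2 log2 units, floor of 20 FPKM). It was tried on simulated data that held sampling noise only, so the trial could not show how the rule acts on differences between libraries. Between the real wild-type and floxed control libraries the rule called 0.935% of all genes higher and 1.17% lower. A level under 0.1 FPKM was taken as missing. Values in every sample are given for each member called in any of the 5 comparisons and for 15 further members fixed by name (30 in all). For the further lists, at most 6 called genes per comparison are named, and Cdkn2d besides. Other genes were named after their values were seen. Alternatives were another pseudocount, floor, fold, scaling, transcript choice and reference library, and leaving out each sample. Python 3.11.15, numpy 2.4.6, pandas 2.3.3 and matplotlib 3.10.9 were used.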

Additional observations from a re-analysis of the deposited data

Results flagged for a closer look

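For 6 of the 56 genes every choice of samples pointed one way in the conditional line and the other way in the germline line, by more than 1 log2 unit. The differences between the 2 effects were not tested, and their causes were not tested. The first 3 concern the aberrant-fraction against the floxed control library, set beside the germline knockout against the wild type. Ccnd2 differed by 1.16 and -1.69 log2 units, an effect 2.85 apart. Mcm7 differed by -1.79 and 1.28, which is -3.07 apart, and Plk1 by -3.49 and 2.70, which is -6.20 apart. For Plk1 both values are set by the pseudocount, because it was listed at 0 in the aberrant-fraction and in the wild-type library.

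The other 3 concern the normal-fraction against the floxed control library, set beside the same germline comparison. E2f1 differed by 2.38 and -2.10 log2 units, 4.49 apart, Bub1 by 2.25 and -1.92, 4.17 apart, and Aurkb by 1.48 and -2.28, 3.76 apart. Bub1 was low in all libraries, at most 4.10 FPKM, and at or below about 1 read in 1 library of each pair.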

How the results depend on the processing

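The number of the 56 genes called moved most with the floor and the fold. For the aberrant-fraction against the floxed control library it was 11, and 25 with a floor of 5 FPKM, 26 with no floor, 21 with a 2-fold threshold and 7 with the wild type as reference, where 4 of the 11 were kept. For the normal-fraction against the floxed control it was 4, and 7 with no floor and 8 at 2-fold; with the wild type as reference E2f1 was lost. For the germline knockout against the wild type it was 9, and 18 with a floor of 5 FPKM, 19 with none and 18 at 2-fold. For the aberrant-fraction against the normal-fraction library it was 10, and 23, 25 and 16 under the same 3 settings. For the wild type against the floxed control it was 1, and 5, 6 and 10 under these, 2 with a pseudocount of 0.1 FPKM and 2 with a common FPKM sum, and 1 to 2 when a sample was left out, since Rgcc was gained. Under upper quartile scaling the germline knockout comparison had 2 higher and 6 lower in place of 1 and 8, and over all genes the normal-fraction comparison had 129 higher and 76 lower in place of 106 and 95. Of 1260 alternative values for 150 differences of 30 named genes, 29 had the other sign, 0 of them in a difference that was called. Of the 29, 14 arose with the wild type as reference, such as Kif23 (from -0.61 to 3.30) and Cdc20 (from -1.33 to 0.49) in the normal-fraction library, and the other 15 were of differences no larger than 0.17 log2 units. Summed levels moved at most 1.27-fold over 45 alternatives, and either scaling moved the median of all genes by at most 0.026 log2 units.

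The limits are those of 1 library per group from 100 pg of RNA: the spread between mice was not measured, levels under about 0.0658 FPKM on a 2 kb transcript are less than 1 read, and loss of molecules before amplification was not measured. No paired analysis was possible because the 2 samples of a group are counted as 1 library and no comparison has a test.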
